A study of Homo sapiens with 12 samples.

Results

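The immediate-early genes followed across the RNA samples of the series were FOS, FOSB, JUN, JUNB, JUND, EGR1, NR4A1, ATF3, DUSP1 and IER2. They are 10 of the 35337 gene rows of the expression table, taken by symbol, and each was present. The genes were chosen by their senescent and non-senescent values in each of the 2 batches, A and B, of these same data, so differences between those groups, between batches in that difference, and between the batches themselves, are given below as description with no test.

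The samples came from EndoC-βH3, a human beta-like line derived from fetal pancreas that carries hTERT and SV40 large T-antigen, which can be cut out by a CreER recombinase that it also carries. The 6 non-senescent samples were controls (0 weeks), and 6 senescent samples were induced with 4-hydroxytamoxifen (4-OHT) for 3 weeks. All 12 have the genotype label WT, and all are of this 1 line. Treatment with 4-OHT, loss of both transgenes and senescence occur in the same samples and cannot be told apart. The sample titles carry the letter A (2 samples per group) or B (4 per group), used here as the batch. Nothing in the labels says that samples of a group are separate cultures, so a spread between them may be technical.

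Immediate-early genes are transcribed within minutes of a stimulus such as a growth factor, calcium entry, stress or the handling of cells, without new protein synthesis, and their RNAs are short-lived. The FOS and JUN proteins pair to form the transcription factor AP-1. Serum response factor, which binds the CArG box, and CREB, which binds the cyclic AMP response element (CRE), sit on many of these promoters. In beta cells glucose and agents that raise cyclic AMP are known to induce several of them.

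RNA was read by CEL-Seq, which captures the 3' ends of polyadenylated transcripts. Values are normalised read counts, and libraries held 8873569 to 17106776 reads in batch A and 4672924 to 7063264 in batch B. Mitochondrial transcripts took 19.9% to 20.2% of reads in non-senescent and 24.7% to 24.8% in senescent samples of batch A, against 15.6% to 16.4% and 17.2% to 17.8% in batch B. Their part in the results below was not tested. INS averaged 30597 and 176730 normalised reads in non-senescent and senescent cells of batch A (14482 and 60953 in B), but SST, the hormone of delta cells, averaged between 117540 and 277160 in the same 4 sets of samples, so the hormone RNAs do not mark these as beta cells alone, as their label has it. GCG, the alpha-cell hormone, averaged 518 to 4914. The 12 listed markers of mesenchymal, endothelial and immune cells summed to only 31.9 to 184 normalised reads per library, with PDGFRB, VWF and CD3E at 0 throughout.

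The stretches of promoter shown here are those that hold the sites immediate-early genes are known for. They are RefSeq promoters (GRCh38.p14) extended on GRCh38 and lie wholly before the annotated start site, 5′ to 3′ along the strand of the gene. Capitals mark the CArG box, the core TGACG of a CRE on either strand (read as CGTCA on the other) and the TATA box TATAAA.
FOS: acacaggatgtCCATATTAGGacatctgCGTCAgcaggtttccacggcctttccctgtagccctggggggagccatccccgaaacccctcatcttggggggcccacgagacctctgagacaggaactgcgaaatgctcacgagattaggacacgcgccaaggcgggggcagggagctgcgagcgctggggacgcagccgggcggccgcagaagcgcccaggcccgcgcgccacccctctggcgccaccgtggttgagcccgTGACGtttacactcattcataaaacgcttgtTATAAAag
FOSB: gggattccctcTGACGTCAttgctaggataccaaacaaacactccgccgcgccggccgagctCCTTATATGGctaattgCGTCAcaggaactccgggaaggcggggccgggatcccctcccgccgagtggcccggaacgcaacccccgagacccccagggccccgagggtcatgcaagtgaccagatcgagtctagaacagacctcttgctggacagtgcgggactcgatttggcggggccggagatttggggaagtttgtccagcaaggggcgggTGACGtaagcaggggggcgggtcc
EGR1: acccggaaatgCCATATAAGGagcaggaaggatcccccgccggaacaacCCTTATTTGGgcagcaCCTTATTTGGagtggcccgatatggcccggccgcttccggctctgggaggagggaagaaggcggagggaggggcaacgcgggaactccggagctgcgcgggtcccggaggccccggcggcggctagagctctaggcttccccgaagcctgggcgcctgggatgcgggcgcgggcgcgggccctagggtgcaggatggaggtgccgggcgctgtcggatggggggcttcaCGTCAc
DUSP1: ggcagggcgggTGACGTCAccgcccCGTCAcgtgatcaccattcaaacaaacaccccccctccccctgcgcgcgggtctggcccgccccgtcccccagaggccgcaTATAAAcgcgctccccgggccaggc
JUND: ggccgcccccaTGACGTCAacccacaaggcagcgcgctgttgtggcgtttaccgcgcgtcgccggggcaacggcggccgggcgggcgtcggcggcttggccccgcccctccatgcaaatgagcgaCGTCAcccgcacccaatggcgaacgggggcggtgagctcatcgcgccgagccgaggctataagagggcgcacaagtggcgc
The FOS stretch (chr14:75278503-75278802, plus strand) runs from 325 to 26 bases before the start site, and that of FOSB (chr19:45467660-45467959, plus strand) from 336 to 37. The EGR1 stretch (chr5:138465050-138465349, plus strand) covers bases 429 to 130, that of DUSP1 (chr5:172771201-172771331, minus strand) 136 to 6, and that of JUND (chr19:18281628-18281833, minus strand) 211 to 6.

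All 10 genes matched the RefSeq table, with 12 start sites in all because ATF3 and NR4A1 have 2 each, and 500 bases before each site were searched on both strands. A CArG box was found in 3 of the 10 genes, once in FOS (bases 314 to 305 before the start site), once in FOSB (274 to 265) and 5 times in EGR1 (from 418 to 74). It is held by 2.43% of 35112 RefSeq promoter windows of the same length. The full CRE, TGACGTCA, was found in FOSB, JUND, DUSP1 and the second promoter of ATF3, against 1.98% of all windows, and its core TGACG, which lies within the full CRE, in 9 of 10 genes against 31.5%. TATAAA stood in FOS, FOSB, JUNB, DUSP1 and the second ATF3 promoter, against 21.2%. No window of the 10 genes held the AP-1 site TGANTCA, which 11.9% of windows hold. The EGR site GCGNGGGCG was in FOSB, JUND and EGR1, against 11.2%. These shares are per window, over genes tested here or not. Of 15303 windows of tested genes, 2.37% held a CArG box, 2.93% a full CRE and 39.3% TGACG, which 9 of the 12 windows above held. TATAAA stood in 14.6%, the AP-1 site in 8.89% and the EGR site in 16.4%. All are matches of letters, not sites shown to be bound, and NR4A1 had no CArG box, CRE core or TATAAA in either window.

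**Figure D1:**
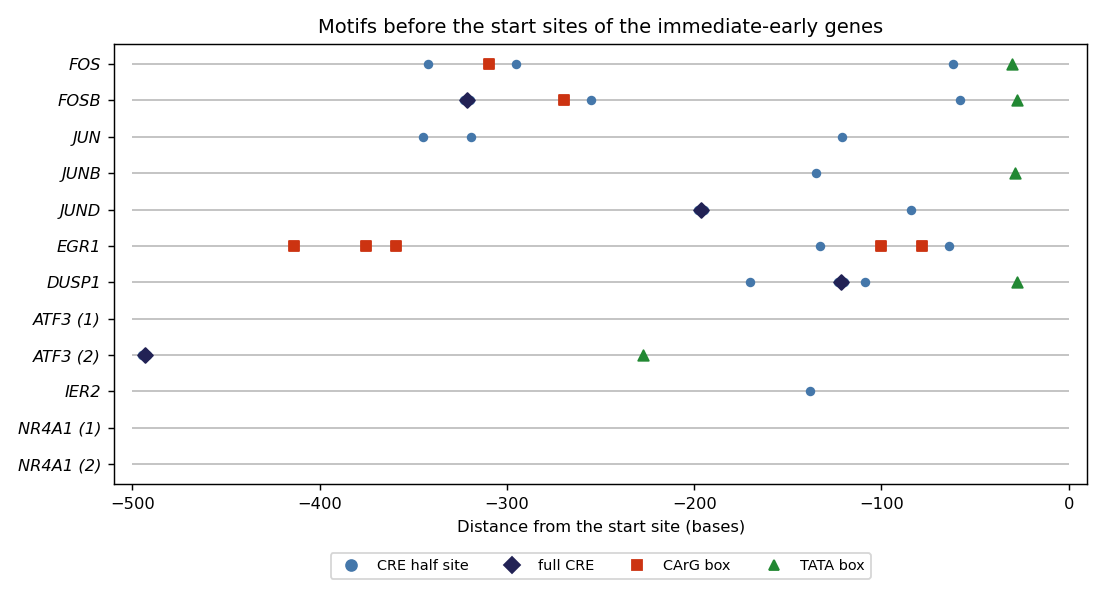
Positions of 4 motifs in the 500 bases before each start site of the 10 genes (x axis, bases from the start site; 1 row per start site, 2 for ATF3 and NR4A1). CArG boxes appear in FOS, FOSB and EGR1 alone, and full CREs in FOSB, JUND, DUSP1 and ATF3.

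In GENCODE v44 on GRCh38, 4 of the genes lie on chromosome 19: FOSB (chr19:45467995-45475179), JUNB (chr19:12791486-12793315), JUND (chr19:18279694-18281622) and IER2 (chr19:13150411-13154911). EGR1 (chr5:138465479-138469303) and DUSP1 (chr5:172768096-172771195) lie on chromosome 5, JUN (chr1:58776845-58784048) and ATF3 (chr1:212565334-212620777) on chromosome 1, FOS (chr14:75278826-75282230) on 14 and NR4A1 (chr12:52022832-52059507) on 12. Most are short. Their median length was 4163 bases, from 1830 for JUNB to 55444 for ATF3, against 35321 for the 12658 other protein-coding genes tested, and their median of 3 exons compared with 9. JUN, JUNB and JUND have a single exon. The pentamer ATTTA, the core of AU-rich decay elements, occurred in the 3' untranslated region of 9 of 10, all but IER2, against 74.4% of the others, and at a median of 2.40 against 1.75 copies per kilobase. FOS carried 5 copies and DUSP1 4, while JUND and EGR1 had 1 each. On the opposite strand FOSB overlaps ERCC1, JUNB overlaps HOOK2, and DUSP1, IER2 and NR4A1 overlap long non-coding RNAs. Whether strand was used in counting is not given in the sources used here.

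FOS, the partner that gives AP-1 its stimulus dependence, was read 630.3 and 670.0 times (normalised) in the 2 non-senescent samples of batch A and 2753 and 2597 times in the senescent ones. In batch B the 4 non-senescent samples had 269.5, 282, 283 and 292 and the senescent ones 293, 249, 263 and 254. The 2 senescent samples of batch A thus stood apart from the other 10, at 4.11 times the non-senescent mean of their batch (2675 ± 110 against 650.1 ± 28.1, SD, n = 2 each), while the groups overlapped in batch B. In such bulk RNA, more cells that express a gene and more of its RNA per cell cannot be told apart. On the log2 scale of the fit (value + 1), the senescent minus non-senescent difference was 2.04 ± 0.12 (SE) in batch A and lay at -0.09 ± 0.08 in batch B. The spread of FOS within a group and batch was lower than that of all but 1.65% of the 13847 genes tested.

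FOSB, a further subunit of the FOS family, showed the same arrangement with a larger step. It was at 27.2 and 34.2 in non-senescent and 267 and 351 in senescent samples of batch A, a ratio of means of 10.1. In batch B it was at 13.6, 11, 13.2 and 8.70 in non-senescent and 8.48, 6.30, 6.87 and 9.96 in senescent samples. All batch B values lay below every batch A value, and within batch B the groups overlapped. The log2 differences were 3.29 ± 0.37 and -0.50 ± 0.26.

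JUN, the main activating partner of FOS, was at 238 and 296 in non-senescent and 813 and 865 in senescent samples of batch A. Its batch B values were 236, 201, 285 and 179 without and 150.3, 166, 177 and 219 with induction, so that here non-senescent samples of the 2 batches overlapped. The senescent samples of batch A were the high ones, 3.14 times their controls. The log2 differences were 1.66 ± 0.21 (A) and -0.33 ± 0.15 (B).

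JUNB, a JUN relative that often restrains JUN, departed from the others in batch B. It was at 278 and 319 without and 708 and 651 with induction in batch A, a ratio of 2.28. In batch B it was at 401, 398, 498 and 569 in non-senescent and 583, 534, 556 and 623 in senescent samples. It was the single member of the 10 whose mean was higher in senescent cells of both batches, with log2 differences of 1.19 ± 0.16 and 0.31 ± 0.11, though 1 non-senescent sample of batch B lay above 2 senescent ones.

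JUND, the JUN family member that most cells keep at a steady level, was lower in senescent samples of both batches. Batch A held 9659 and 10868 without and 8107 and 9313 with induction. Batch B held 1568, 1572, 1552 and 1462 without and 959, 987, 1140.0 and 1176 with induction. Groups did not overlap in either batch, at ratios of means of 0.849 and 0.692 and log2 differences of -0.24 ± 0.11 and -0.53 ± 0.08. The step between batches was the more visible one, with 6.67 times more JUND in batch A among non-senescent samples and 8.18 times more among senescent ones.

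EGR1, a zinc-finger factor driven by serum response factor and the gene with 5 CArG boxes above, was at 499 and 564 in non-senescent and 1307 and 1299 in senescent samples of batch A. In batch B it was at 159.6, 158, 203 and 176 without and 109, 132, 135 and 112 with induction. The groups did not overlap in either batch, and their order was opposite, with ratios of means of 2.45 (A) and 0.700 (B). The log2 differences were 1.29 ± 0.16 and -0.51 ± 0.11. With both batches in 1 fit the difference was 0.09 ± 0.23, and its sign turned when any 1 library of batch A was left out (-0.08 to -0.04) or when all libraries were scaled to the same total (-0.01).

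NR4A1, an orphan nuclear receptor known as Nur77, had the same reversed order. It was at 38.3 and 31.8 in non-senescent and 71.8 and 93.6 in senescent samples of batch A, and at 25.6, 17.9, 17.5 and 18.6 against 6.06, 4.20, 1.14 and 3.74 in batch B. The last 4 values stand for 5, 4, 1 and 3 reads. Over the summed reads of batch B, 13 in senescent and 57 in non-senescent samples, the normalised ratio was 0.190. The log2 differences were 1.21 ± 0.50 and -2.23 ± 0.35, the second becoming -1.25 with a pseudocount of 8 in place of 1.

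ATF3, a stress-induced factor of the CREB family that can pair with JUN, differed mainly by batch. It was at 80 and 66 in non-senescent and 91.6 and 88.2 in senescent samples of batch A. In batch B it was at 3.01, 11, 8.77 and 3.73 against 2.42, 3.15, 1.14 and 4.98, which is 19 reads against 10 in all. The batch B groups overlapped, at a normalised ratio of 0.439 of the summed reads. ATF3 passed the filter of a mean of at least 5 through its batch A values.

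DUSP1, the phosphatase that switches off MAP kinases, was at 151 and 154 in non-senescent and 476 and 504 in senescent samples of batch A, a ratio of 3.21. In batch B it was at 81.3, 116, 124 and 89.5 against 67.9, 86.1, 96.1 and 119.6, with groups that overlapped. IER2, a nuclear protein of the early growth response, was at 196 and 170.1 against 315 and 266 in batch A. In batch B it was at 114, 140.4, 129 and 123 against 67.9, 70.3, 101 and 76.0, so the groups were apart in both batches and in opposite order. The log2 differences of DUSP1 were 1.68 ± 0.25 and -0.16 ± 0.18, and those of IER2 were 0.66 ± 0.21 and -0.69 ± 0.15.

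Counted over the set, 9 of the 10 genes had both senescent samples above both non-senescent samples in batch A (34.3% of all 13847 genes tested did), and JUND was below. In batch B no gene of the 10 had all senescent samples higher (15.8% of all genes), 4 had all of them lower (15.4% of all genes), and 6 overlapped. The 3 genes EGR1, IER2 and NR4A1 were apart in opposite directions in the 2 batches, an arrangement held by 0.809% of all genes. Because these values chose the genes, nothing is read from the shares. The median log2 difference of the 10 was 1.25 in A and -0.51 in B, and over all genes tested 0.00 and 0.01. With the same total in every library the median of all genes in batch A moved by -0.13 (log2), and no member changed sign within a batch under any alternative tried.

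**Figure D2:**
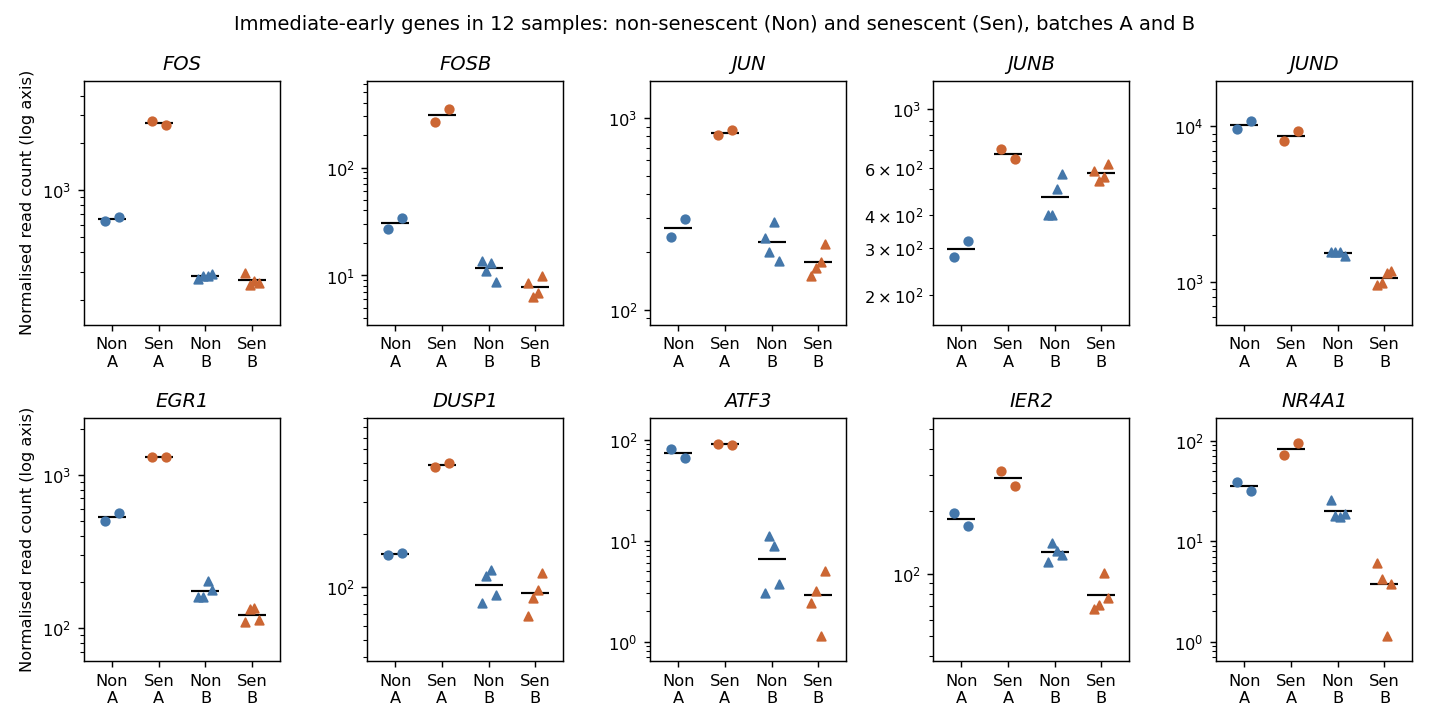
Normalised read counts (log axis) of the 10 genes in each of 12 samples, by group and batch, where circles are batch A, triangles batch B, and bars the mean. In 9 panels, all but JUND, both senescent samples of batch A lie above both non-senescent ones, while in batch B the senescent samples of JUND, EGR1, IER2 and NR4A1 lie below and the groups of the other 6 genes overlap.

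Of 45 further immediate-early genes, listed from the class with earlier results of these data known, 32 were tested and 13, among them FOSL1, EGR3, ARC and NPAS4, had a mean under 5. Their median log2 difference was 0.06 in A and 0.04 in B, against the 0.00 and 0.01 of all genes. A positive difference in A with a negative one in B was held by 5 of the 32, and by 1923 of all 13847 genes tested. In batch A 7 of the 32 were called higher and 2 lower, and in batch B 8 and 3 (limma, limits as below). Of all 13847 genes tested, 1131 were called higher and 1074 lower in batch A, and 1808 and 1838 in batch B. Of the tested FOS, EGR and NR4A relatives, EGR2, EGR4 and NR4A2 had both senescent samples above both non-senescent ones in batch A. This order was held by 34.3% of all genes tested. EGR2 averaged 4.73 and 19.1 there in non-senescent and senescent samples, and NR4A2 12.9 and 27.6. FOSL2 and NR4A3 had lower senescent means, NR4A3 at 14.4 and 6.31. In batch A these relatives were not called. With batch in the model, 8 of 32 rose and 2 fell in senescent cells (limma, adjusted p under 0.1 and a change over 1.5-fold), where 11.6% of all genes rose and 11.8% fell. RHOB, a small GTPase induced by DNA damage, rose by 1.85 ± 0.18 on the log2 scale (adjusted p = 3.58e-07, limma). BTG2, an antiproliferative p53 target, rose by 1.33 ± 0.13 (adjusted p = 2.48e-07) and TOB1, of the same family, by 1.27 ± 0.18 (adjusted p = 2.20e-05). All 3 had every senescent sample above every non-senescent sample in each batch, an order whose share of all genes was not computed. The neuronal EGR relative EGR4 rose by 1.31 ± 0.54 (adjusted p = 0.0655, limma), the circadian repressor BHLHE40 fell by 1.05 ± 0.28 (adjusted p = 0.00672), and ZFP36L1, which binds AU-rich elements, was called lower at -0.72 ± 0.29 (adjusted p = 0.0584). The ZFP36L1 difference lay in batch B, where its mean was 57.3 in non-senescent and 27.3 in senescent samples (log2 difference -1.07 ± 0.33), against 9.45 and 9.31 in batch A (-0.02 ± 0.46). That of EGR4 was likewise 1.82 ± 0.65 in batch B and 0.28 ± 0.92 in batch A. Neither gene was called for a different response between batches (adjusted p = 0.406 for ZFP36L1 and 0.577 for EGR4, limma). The calls of EGR4 and ZFP36L1 were lost when certain single batch B libraries were left out, EGR4 without non-senescent B1 or B2 or senescent B1 or B4 (adjusted p 0.122 to 0.161), and ZFP36L1 without non-senescent B2 or B4 or senescent B2 or B4 (0.101 to 0.146). Both were also lost with no filter on low values (0.140 for EGR4 and 0.120 for ZFP36L1) and with no batch term (0.491 and 0.511), that of EGR4 with edgeR (0.120), and that of ZFP36L1 with a replicate block in place of the batch term (0.101), so each was lost in 7 of 22 alternatives.

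**Figure D3:**
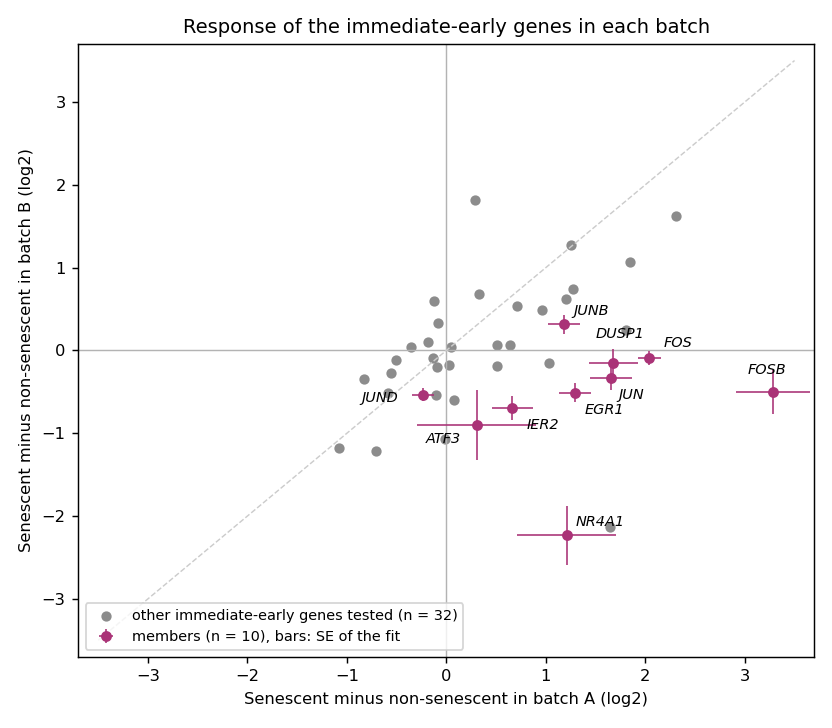
Senescent minus non-senescent log2 difference in batch A (x) and batch B (y) for the 10 members (error bars, SE of the fit) and the 32 other immediate-early genes tested; the dashed line marks equal values. Of the members, 9 lie to the right of 0, FOSB farthest at 3.29, and 9 lie below 0. Of the 32 others, 5 lie both to the right of 0 and below it, as would 1923 of all 13847 genes tested.

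Whether the response itself differed between batches was tested for those other genes through the interaction of group and batch. The test called 2 of the 32, both with the lower response in B, against 1.88% of all genes called in that direction and 2.33% in the other. BTG2 rose by 1.84 in the A samples and by 1.07 in B, a difference of -0.77 ± 0.19 (adjusted p = 0.0426, limma). The second was HBEGF, a growth factor of the EGF family, named after its values were seen. It had few reads, and its difference was 1.65 in A and -2.13 in B (adjusted p = 0.0703, limma). The HBEGF call was lost in 8 of 18 alternatives. Both calls were lost when any 1 library of batch A was left out (adjusted p 0.158 to 0.265), and that of HBEGF also without non-senescent B1 or B4 or senescent B2 (0.101 to 0.112), as the calls over all genes then went from 583 to between 169 and 261. Of the members, the same quantity, given without a test, ran from -0.30 ± 0.14 for JUND to -3.79 ± 0.46 for FOSB, with -3.44 ± 0.61 for NR4A1 and -2.13 ± 0.14 for FOS.

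The level of each gene between batches, over both groups, rests on the values that chose the genes, the high senescent values of batch A among them, and is given as description with no test. The batch B minus batch A difference was below 0 for 9 of the 10, all but JUNB, and for 7199 of all 13847 genes tested. On the log2 scale it was -4.03 ± 0.39 (SE) for ATF3, which passed the filter only through batch A, -3.23 ± 0.51 for FOSB, -2.88 ± 0.08 for JUND, -2.52 ± 0.51 for NR4A1, -2.51 ± 0.24 for EGR1 and -2.27 ± 0.27 for FOS. It was smaller for DUSP1 (-1.50 ± 0.27), JUN (-1.25 ± 0.27) and IER2 (-1.21 ± 0.21), and JUNB lay at 0.19 ± 0.15. All 4 samples of batch A exceeded all 8 of batch B in 8 of the 10 genes, the exceptions being JUN and JUNB. The share of all genes with this order was not computed, and nothing is read from the count. The median difference of the 10 was -2.39, against -0.05 over all genes. Each of the 10 differences kept its sign in every alternative tried.

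Among non-senescent samples alone, 8 of 10 genes had both batch A samples above all 4 of batch B, by 1.45-fold (IER2) to 11-fold (ATF3), JUN overlapped, and JUNB was lower in batch A (0.640). In senescent samples all 10 were higher in batch A, from 1.18-fold for JUNB to 39.1-fold for FOSB, with a median of 9.14-fold against 2.03-fold in non-senescent samples. Shares of all genes were not computed for these counts within a group either, and nothing is read from them. Of the 32 other immediate-early genes tested, 12 were called lower in batch B and 3 higher (limma, with the limits above), where 26.8% of all genes were called lower and 26.3% higher, and their median was -0.45. EGR4 (-3.20), BTG2 (-2.44), PER1 (-2.06) and TRIB1 (-2.05) were lower in B by more than 2 log2 units, and PLK3 (3.24) was higher. The batches also differ in depth and mitochondrial share as given above, and none of these can be told apart from the batch.

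**Figure D4:**
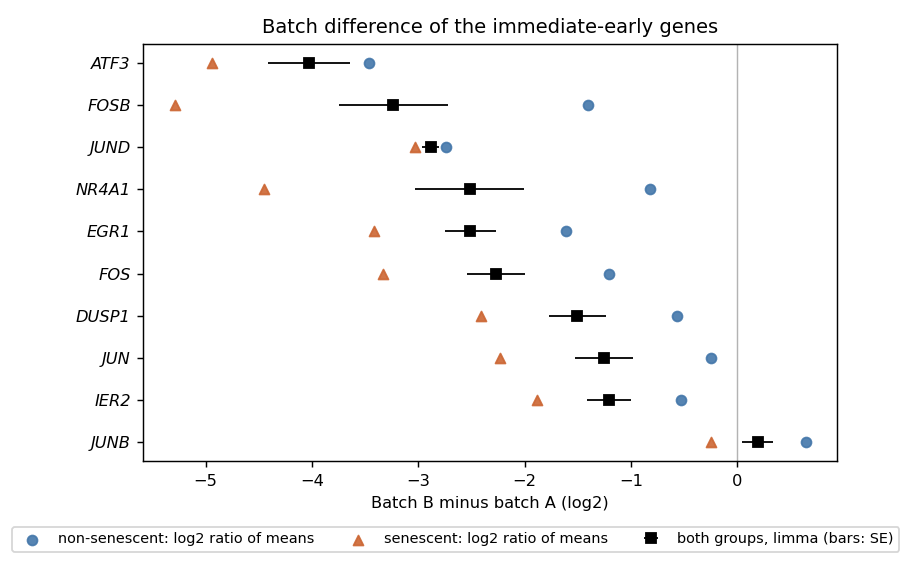
Batch B minus batch A (log2) for the 10 genes: black squares with SE bars are the limma estimate over both groups, blue circles the log2 ratio of means among non-senescent samples, and orange triangles that among senescent samples. Of the black squares, 9 lie left of 0 between -4.03 and -1.21, and JUNB lies at 0.19.

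Within a group and batch the deviations of the 10 genes were not all alike. The correlation of each with the mean of the other 9, on log2 values centred by group and batch over 12 samples, ran from -0.31 (IER2) to 0.60 (DUSP1) and was positive for 5 of 10, namely DUSP1, JUN, ATF3, FOSB and JUND. These samples share batches and depth, and the few reads of ATF3 and NR4A1 in batch B add counting noise. After centring, the 2 batch A samples of a group mirror each other, and samples of a group may be technical repeats. Such a spread cannot tell whether the genes move together between cultures. Among 11672 other genes with a mean of at least 20, those whose centred profile was most like the members' mean were AC000093.1 (Pearson r = 0.96), AC079414.2 (0.94), LARP1 (0.94), PRDM10 (0.93), SND1 (0.92) and MPP5 (0.91), as the highest of that many genes over 12 samples. None of the 6 is an immediate-early gene of the lists, and their own log2 differences between groups in batch A ran from -2.08 to 0.30.

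Regulators that act before and after these genes were compared between groups with batch in the model, where, as above, 11.6% of all genes were called higher and 11.8% lower. Of 11 serum response factor, ELK, MRTF and CREB family genes tested, none was called. SRF itself differed by 0.07 (adjusted p = 0.633, limma) and CREB1 by 0.26 (0.158). In the RAS and MAP kinase cascade 2 of 23 rose and none fell, RPS6KA2, a kinase downstream of ERK, by 0.87 ± 0.11 (adjusted p = 4.40e-06) and MAP2K6, which activates p38, by 0.81 ± 0.12 (4.82e-05). The median of the cascade was 0.07. Among 13 MAP kinase feedback inhibitors, relatives of DUSP1 in role, 2 rose and 1 fell, with DUSP8 at 0.77 ± 0.10 (adjusted p = 1.28e-05) and DUSP14 at -0.62 ± 0.11 (0.000231), the latter under the 1.5-fold limit without non-senescent B3 or B4. Of 5 partners of AP-1 subunits tested 1 rose, MAFK, at 0.73 ± 0.26 (adjusted p = 0.0317, limma). It fell short of 1.5-fold without non-senescent B1 and was not called with no batch term, so the call was lost in 2 of 22 alternatives. Its log2 difference came to 1.04 ± 0.30 within batch B but to 0.13 ± 0.42 within A.

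Genes listed here as targets of AP-1 and EGR factors were mostly under the filter in these cells. Of 15 listed, among them MMP1, MMP3, MMP9, PLAU, IL6 and CCND1, 4 had a mean of at least 5, and 2 of those fell in senescent cells and none rose, beside 11.8% lower and 11.6% higher of all genes. NAB1, a co-repressor of EGR1, fell by 1.09 ± 0.27 (adjusted p = 0.00452, limma) and was 2.24 lower in batch B. With no batch term neither of the 2 that fell was called. Among 13 genes of AU-rich RNA binding and decay, a list without the ZFP36 family, 3 fell and none rose, beside the same shares of all genes, and their median was -0.05. Those that fell were ELAVL2, by 0.91 ± 0.21 (adjusted p = 0.00268), KHSRP, by 0.62 ± 0.08 (1.83e-05) and HNRNPD, by 0.59 ± 0.07 (1.81e-06). HNRNPD lies at the 1.5-fold limit and went under it in 5 of the 12 fits that leave out a library. The ZFP36 family, which also binds AU-rich elements, was counted with the other immediate-early genes above. There ZFP36 rose by 0.82 ± 0.18 (adjusted p = 0.00150, limma), ZFP36L1 was called lower, and ZFP36L2, at 0.57 ± 0.12, was not called.

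Heat shock chaperones are a further class, and stress is known to induce some of them. Of 10 tested 3 fell in senescent cells and none rose, where 11.8% of all genes fell and 11.6% rose, and their median was -0.39. The 3 were HSPB1 at -1.30 ± 0.19 (adjusted p = 4.82e-05, limma), HSPE1 at -0.81 ± 0.11 (1.78e-05) and HSPA8 at -0.60 ± 0.06 (9.22e-07). Those not called ran from -0.54 (HSP90AA1) to 0.18 (HSPA1B), with HSPA1A at -0.31 ± 0.12. Within batch A, HSPA1B was higher by 0.56 ± 0.17 and HSPA1A lay at 0.00 ± 0.19, neither called. The differences of these 3 had the same sign in both batches, -1.24 and -1.33 for HSPB1, and none of the 10 was called for a different response between batches. Across batches 2 of the 10 were called lower in B and 3 higher, beside 26.8% and 26.3% of all genes.

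**Figure D5:**
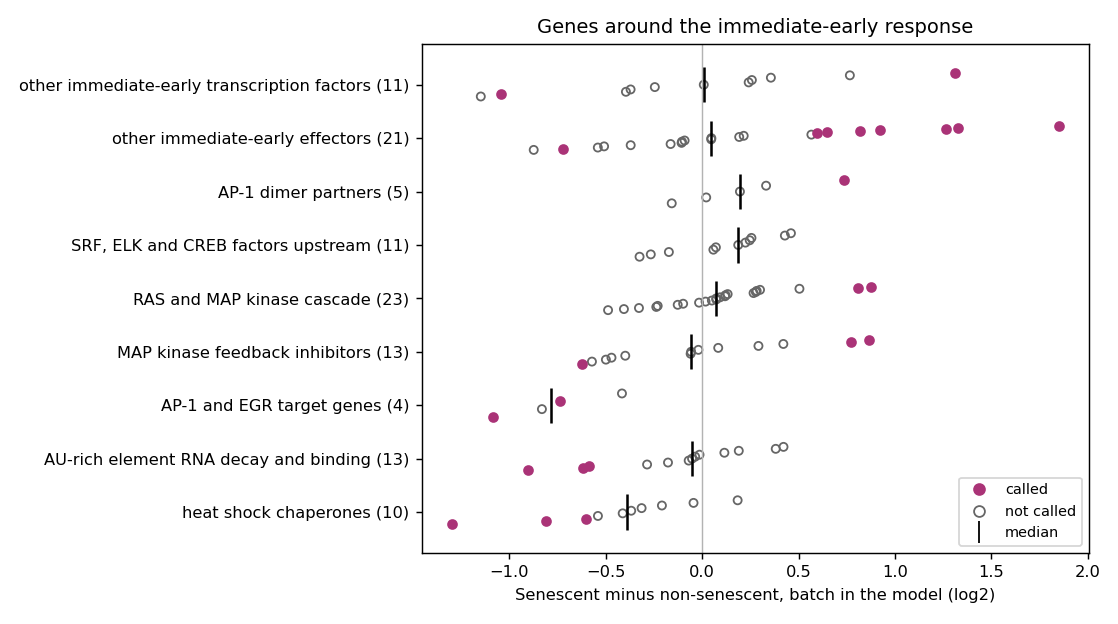
Senescent minus non-senescent log2 difference with batch in the model (x) for the tested genes of 9 lists around the immediate-early response (rows, number tested in brackets); filled points were called, open points were not, and bars mark medians. The highest point is RHOB at 1.85, and called genes of the AU-rich and heat shock rows lie below 0.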

How the data were processed

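RNA of 12 EndoC-βH3 samples was profiled by CEL-Seq. The submitters' processing notes name Cutadapt, Salmon 0.13.1, GRCh38 and DESeq2, and the annotation and the use of strand and molecular identifiers are not given in the sources used here. The deposited values are a signal, reads per gene divided by 1 size factor per sample by the authors. All 196021 non-zero values were whole multiples of what 1 read is worth (tolerance 0.01), which gave back whole reads, and 3 reads, the most that a count of 0 allows, are 1.35 to 4.52 normalised reads. The same table holds the authors' own fold changes, errors and p-values, which were not used.

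Differences were fitted by limma 3.58.1 (R 4.3.3, intensity trend) on log2(value + 1) for the 13847 genes with a mean of at least 5. The additive model held group and batch. Differences within each batch, and their interaction, were contrasts of 1 further fit with a mean per batch and group. All 12 samples share its estimate of spread, so the SE of a batch A difference does not rest on batch A samples alone. Calls needed a p under 0.1 after Benjamini-Hochberg adjustment over all genes and a change over 1.5-fold, and the interaction at the adjusted p alone. Fold changes of low genes are understated on this scale. edgeR 4.0.16 and DESeq2 1.42.0 on the recovered reads were alternatives. The script was tested on simulated data. Groups, batches and replicates came from the sample titles.

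The members and the lists were chosen with earlier results of these data known, so the members' differences between groups and between batches are given with no test. All 10 members were named, and from each list up to 3 called genes per direction with the largest change and a mean of at least 20, and other genes are given as listed examples. Older symbols were matched through RefSeq synonyms. Promoter windows of the RefSeq table (GRCh38.p14) were identical to hg38 at all 35116 sites. No library was left out of the results given first.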

Additional observations from a re-analysis of the deposited data

Results flagged for a closer look

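EGR1, IER2 and NR4A1 had every senescent sample above every non-senescent sample in batch A and below in batch B. The response in B minus that in A was -1.80, -1.35 and -3.44 on the log2 scale, and the difference was not tested, since it chose the genes. NR4A1 rests on 13 reads in the senescent samples of batch B.

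The 4 batch B samples of each group, and its 6 samples of both batches, were examined for each gene, and 1 of these 40 sets held a sample far from the others. The sets of 6 hold the step between batches and contain the sets of 4, so no rate by chance is given. NR4A1 was at 25.6 in non-senescent sample B1, with the nearest sample at 18.6.

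By the interaction in limma, the response differed between batches for BTG2 by -0.77, with the rise larger in batch A. It differed for PCSK1, a prohormone convertase, by 0.74 (adjusted p = 0.0533), for SST by 0.89 (adjusted p = 0.000747) and for GCG by 1.59 (adjusted p = 6.81e-06). These last 3 fell in senescent cells of both batches and fell further in batch A, GCG by 2.36 there and by 0.77 in B. Other listed islet markers were also called, IRX2 (-1.25, adjusted p = 0.000105), NKX6-1 (-0.72, adjusted p = 0.0174) and SLC30A8 (0.71, adjusted p = 0.00521). IRX2 and NKX6-1 had every senescent sample above every non-senescent sample in batch A and below in batch B, the order seen in EGR1, IER2 and NR4A1. The calls of BTG2 and PCSK1 were lost without any 1 library of batch A, and those of SST and GCG were kept in all 20 alternatives.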

How the results depend on the processing

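The count of genes called between groups was 3237 and became 2143 without the batch term. Replicate numbers did not pair the samples (same-number correlation of deviations -0.05 to 0.02), and a replicate block in place of the batch term gave 3211. The interaction called 583 genes, 1079 with DESeq2 and, with 1 library left out, 169 to 743, the low end without any library of batch A. With 1 library left out, the batch A count of 2205 went to between 1422 and 2272, lowest without senescent A1 or non-senescent A2 (1436). Leaving out a library gave 3142 to 3277 calls between groups, 3526 to 3692 in batch B and 7117 to 7373 between batches. Scaling to the same total moved the share of calls that were higher from 49.6% to 37.0% between groups, from 51.3% to 34.2% in batch A and from 49.6% to 39.2% in batch B. For the interaction it went from 55.2% to 64.5%, and to 42.9% with TMM and 42.5% with edgeR. The batch median of all genes was -0.10 with no filter. Of 620 values of the members between groups, 23 moved by more than the spread within groups, among them FOSB over both batches (0.76, and 2.04 in edgeR) and NR4A1 (-1.09, and -0.33 in edgeR). All 200 batch values of the members kept their sign. Of 32 calls named in the lists and markers, 17 held in every alternative.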
